A study of Mus musculus with 8 samples.

Results

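The enzymes that build cholesterol and fatty acids were examined in RNA-seq of mouse embryonic stem cells (ESCs), as 31 genes picked by symbol among the 50902 genes of the expression table. They comprise 18 enzymes of the cholesterol pathway, 4 genes of its regulation and transport, and 9 genes of fatty acid synthesis. BAZ2A, the large subunit of the nucleolar remodelling complex, is a chromatin protein whose TAM domain binds RNA. The E14 line was kept in N2B27 medium with LIF and 2i (a MEK and a GSK3β inhibitor), without feeder cells, and carried a piggyBac transgene for FLAG- and HA-tagged BAZ2A that resists a siRNA against Baz2a. In 4 libraries the transgene was wild type (ESC + F/H-BAZ2Ar WT, here the WT line) and in 4 it lacked the TAM domain (ESC + F/H-BAZ2Ar ΔTAM, here the ΔTAM line). Both lines received siRNA-Baz2a and were collected 3 days after transfection, so neither is untreated. The lines were grown from single-cell clones chosen for transgene expression close to that of the endogenous protein, and an effect of the deletion and a difference between clones cannot be told apart.

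Cholesterol is made from acetyl-CoA by way of mevalonate, the isoprenoid farnesyl diphosphate, the linear triterpene squalene and the ring compound lanosterol. The same cytosolic acetyl-CoA feeds fatty acid synthase, whose palmitate is then lengthened and desaturated. The transcription factors SREBF2 and SREBF1 act on these genes, are held in the endoplasmic reticulum by INSIG proteins when sterols are plentiful, and are known to bind sterol regulatory elements next to CCAAT and GC boxes. In cultured ESCs the pathways supply membrane for fast division.

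Of the 31 genes, 29 passed the filter of a mean of 0.1 RPKM (reads per kilobase of gene scaled to the reads of the library). In the ΔTAM line 10 of these rose, namely Hmgcs1, Idi1, Fdft1, Sqle, Hsd17b7, Ebp, Sc5d, Insig1, Acly and Fasn, and 3 fell, namely Pmvk, Scd2 and Fads1. The other 16 did not pass the test, which was limma on log2(RPKM + 0.1) with Benjamini-Hochberg adjustment over all 9000 genes tested and a threshold of 0.05. The share that rose was 34.5% of the members tested, against 19.9% of all genes tested, and the share that fell was 10.3% against 15.9%. The median log2 fold change was 0.030 for the members and 0.011 for all genes tested. The changes were small, with the largest at 0.51 on the log2 scale (Hmgcs1), and the lowest at -0.29 (Fads1). The study's thresholds were a log2 fold change of 0.58 or more in either direction and p under 0.05, without stating whether p was adjusted. Read as an unadjusted p, on log2(RPKM + 0.1), none of the 29 passed them, and 3.79% of all genes tested did. This scale shrinks the change of low genes, so that share is not the study's own. With limma voom on recovered reads, 0 of 31 members and 1500 of 12657 genes passed. At an unadjusted p under 0.05 alone, limma called 16 of the 29, against 45.9% of all genes tested. In 10 members every ΔTAM library lay above every WT library (20.5% of all genes tested), and in 4 every one lay below (16.7% of all genes tested). These 4 are the 3 called genes and Scd1, and in the other 15 the lines overlapped.

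**Figure D1:**
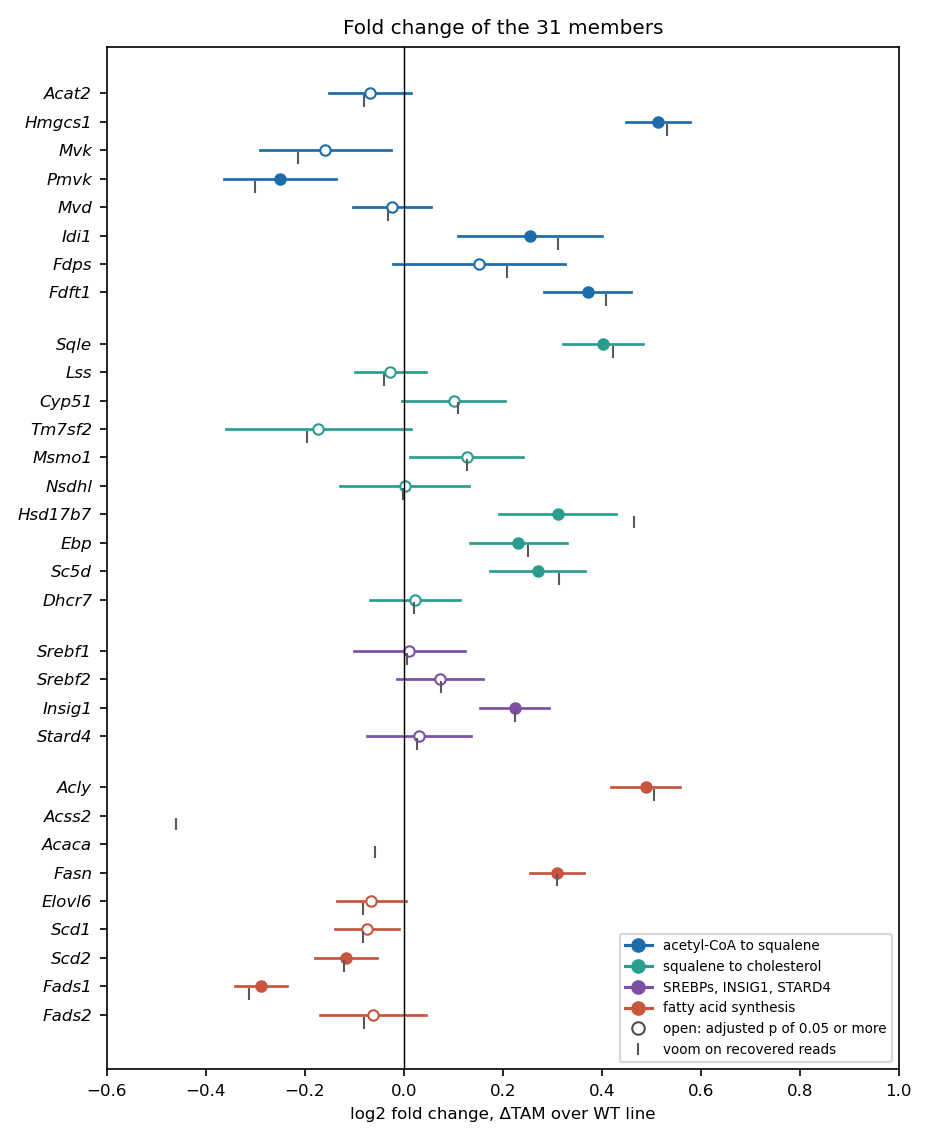
Log2 fold change of the ΔTAM over the WT line (horizontal axis) for the 31 members, grouped by role, with the 95% interval from limma on log2(RPKM + 0.1). Filled points are the 13 called genes, open points the 16 not called, and small ticks the fold change from reads recovered from the values, the only estimate drawn for Acss2 and Acaca, and the called genes run from -0.29 (Fads1) to 0.51 (Hmgcs1).

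Reads on genes came to 7255618 to 7686802 per library in the WT line and 6560881 to 8662855 in the ΔTAM line, recovered from the RPKM values, and intervals rest on the spread between libraries. Members had between 82 reads (Fdps) and 16155 reads (Scd2) in a library. Nothing in the sources says whether the 4 libraries of a line came from separate cultures, so p-values measure the spread between these libraries, which may be technical. Baz2a, the gene targeted by the siRNA, was at 9.95 to 11.2 RPKM in the WT line and 17.0 to 18.9 RPKM in the ΔTAM line, with transgene and endogenous reads together. All 10 ESC markers were above the filter, and their summed level was 382 to 391 RPKM in the WT line and 304 to 332 RPKM in the ΔTAM line, with 6 of 10 lower by limma, against 15.9% of all genes tested. Markers of primitive endoderm (7 genes) summed to at most 0.046 RPKM with Afp at 0, and those of fibroblasts or feeders (7 genes) to at most 0.033 RPKM with Col3a1, Dcn and Lum at 0. Trophoblast markers (6 genes) summed to 1.41 to 1.57 and 1.47 to 1.79 RPKM, with 1 higher and 1 lower of the 4 tested (19.9% and 15.9% of all genes tested), and neural or mesoderm markers (6 genes) to 1.25 to 1.32 and 0.786 to 1.05 RPKM, with 1 lower of the 2 tested and Fgf5 at 0. Their part in the differences below was not tested. In bulk RNA, fewer cells of a type and less RNA per cell cannot be told apart.

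In the arm from acetyl-CoA to squalene, 3 of 8 enzymes rose, 1 fell and 4 did not pass the test (all genes tested: 19.9% higher, 15.9% lower). The values below are in the order of replicates 1 to 4, and fold changes are on the log2(RPKM + 0.1) scale, which understates the change of low genes. Hmgcs1, the cytosolic synthase that makes HMG-CoA, lies at chr13:119690379-119708260 (mm10, as are all gene positions here). It was at 1.93, 1.94, 1.92 and 2.03 RPKM in the WT line and 2.78, 2.78, 2.84 and 2.93 RPKM in the ΔTAM line. All 4 ΔTAM libraries were above all 4 WT libraries, with WT replicate 4 the highest of its line, and the gap between the lines was far wider than the spread within either. Its mean rose from 1.96 ± 0.047 to 2.83 ± 0.071 RPKM (SD, n = 4), by 44.9%, a log2 fold change of 0.51 ± 0.028 (SE, limma adjusted p = 2.86e-05). The window around its start (chr13:119690101-119690400, plus strand, 250 bases before to 50 after, RefSeq on GRCm38.p6) is shown because Hmgcs1 had the largest change. Capitals mark CCAAT on either strand (read as CCAAT or ATTGG) and TCACCCCAC, a match to TCACNCCAC, the core of the sterol regulatory element, 137 bases before the start.
Hmgcs1: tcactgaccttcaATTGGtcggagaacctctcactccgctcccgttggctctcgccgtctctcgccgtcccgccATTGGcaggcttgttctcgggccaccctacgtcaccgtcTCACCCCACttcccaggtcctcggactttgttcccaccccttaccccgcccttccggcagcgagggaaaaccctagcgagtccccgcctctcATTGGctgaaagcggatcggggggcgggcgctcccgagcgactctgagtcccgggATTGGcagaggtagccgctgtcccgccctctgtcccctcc

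Around Hmgcs1, Acat2, Mvk and Mvd did not pass the test and Pmvk fell. Acat2, which condenses acetyl-CoA upstream of it, had a log2 fold change of -0.068 (95% interval -0.15 to 0.015), Mvk, which phosphorylates mevalonate, one of -0.16 (95% interval -0.29 to -0.025), with limma adjusted p-values of 0.178 and 0.0654. Mvk was called lower without WT replicate 4 (limma adjusted p = 0.0283) or ΔTAM replicate 1 (0.0475), and with quantile normalization (0.0369). Pmvk, the kinase that adds the next phosphate, lies at chr3:89454541-89469013. It was at 0.573, 0.537, 0.576 and 0.550 RPKM in the WT line and 0.468, 0.446, 0.411 and 0.495 RPKM in the ΔTAM line. The lines did not overlap, although the ΔTAM libraries were spread more widely. The mean fell by 18.6%, from 0.559 ± 0.019 to 0.455 ± 0.035 RPKM (SD, n = 4), a log2 fold change of -0.25 ± 0.049 (SE, limma adjusted p = 0.00600). Mvd, the decarboxylase that follows, did not pass the test, with a fold change of -0.024 (95% interval -0.10 to 0.054) on the log2 scale and libraries at 0.821 to 0.862 RPKM in the WT line and 0.774 to 0.854 RPKM in the ΔTAM line. The first of 2 RefSeq windows of Pmvk (chr3:89454291-89454590, plus strand) is shown as that of a gene that fell, with its single CCAAT in capitals, 136 bases before the start, while the second window (chr3:89459321-89459620) held no CCAAT.
Pmvk: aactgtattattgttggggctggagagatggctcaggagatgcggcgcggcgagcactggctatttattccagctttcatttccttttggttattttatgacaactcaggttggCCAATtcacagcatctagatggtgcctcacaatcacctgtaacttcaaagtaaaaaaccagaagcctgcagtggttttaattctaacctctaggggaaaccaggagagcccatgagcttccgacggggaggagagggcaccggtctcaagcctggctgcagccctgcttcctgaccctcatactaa

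Idi1, the isomerase that turns isopentenyl into dimethylallyl diphosphate (chr13:8885501-8892451), was at 0.330, 0.372, 0.399 and 0.401 RPKM in the WT line and 0.433, 0.496, 0.497 and 0.443 RPKM in the ΔTAM line. The lowest ΔTAM library was above the highest WT library, by little. Its mean rose from 0.375 ± 0.033 to 0.467 ± 0.034 RPKM (SD, n = 4), a log2 fold change of 0.26 ± 0.063 (SE, limma adjusted p = 0.0159), on 114 to 184 reads a library. Fdps, which makes farnesyl diphosphate, was the thinnest of the members with 82 to 132 reads a library and did not pass the test, at 0.15 (95% interval -0.021 to 0.32) on the log2 scale. Its exons share 1124 bases with Gm43738 on the same strand, which was listed at 0. How reads in shared exons were assigned is not stated, so the reads of Fdps may be too few. Fdft1, squalene synthase, commits the isoprenoids to sterols and lies at chr14:63145150-63179578. It was at 0.768, 0.768, 0.733 and 0.748 RPKM in the WT line and 0.952, 1.07, 1.03 and 0.975 RPKM in the ΔTAM line. The lines were fully apart, and the mean rose from 0.754 ± 0.017 to 1.01 ± 0.053 RPKM (SD, n = 4), by 33.4%, a log2 fold change of 0.37 ± 0.038 (SE, limma adjusted p = 3.17e-04). Fdft1 shares 774 bases of exon with Ctsb on the opposite strand, and the sources do not state whether strand was used in counting. Ctsb itself had a log2 fold change of -0.041 (limma adjusted p = 0.243) at a mean of 1.90 RPKM.

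**Figure D2:**
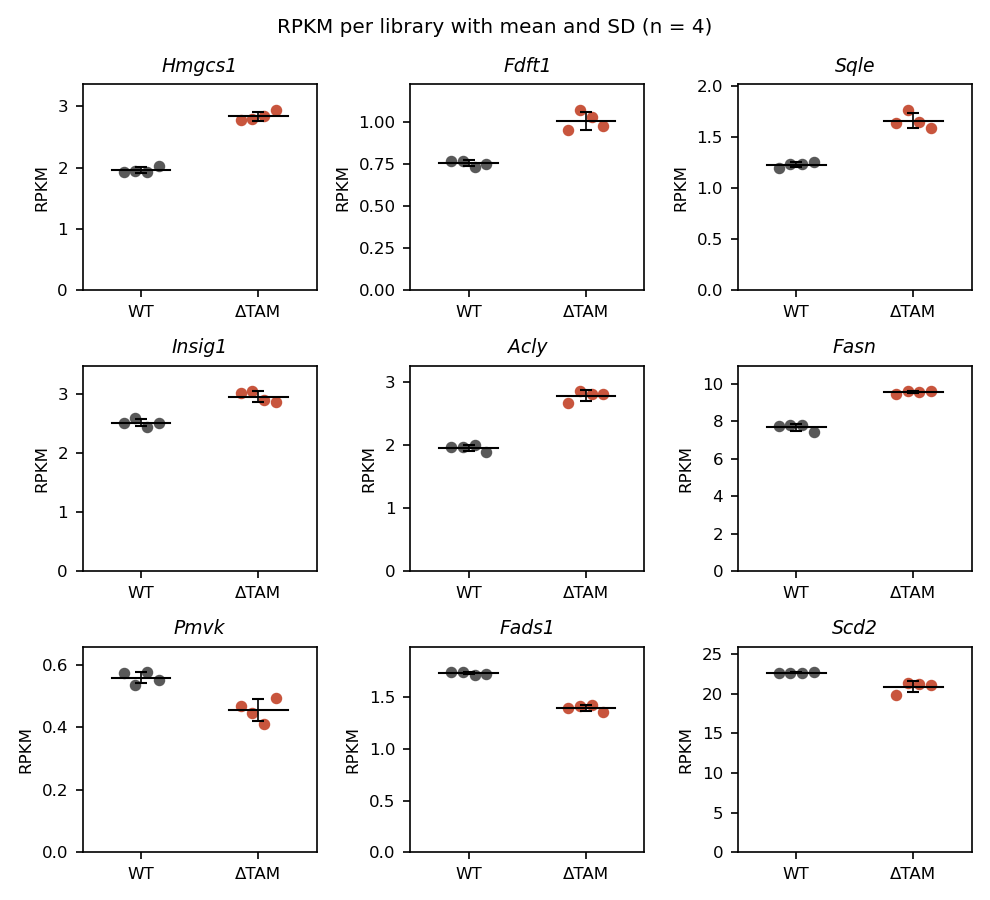
RPKM (vertical axes, from 0) of 9 members in the 4 WT and 4 ΔTAM libraries, each point 1 library, with the mean and SD of each line. Hmgcs1, Fdft1, Sqle, Insig1, Acly and Fasn are higher in every ΔTAM library, and Pmvk, Fads1 and Scd2 lower in every one.

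Between squalene and cholesterol, 4 of 10 enzymes rose, none fell and 6 did not pass the test in limma (all genes tested: 19.9% higher, 15.9% lower). At an unadjusted p under 0.05, 5 of the 10 passed (45.9% of all genes tested did), and limma voom on recovered reads called 5 higher and 0 lower (21.3% and 22.7% of the genes tested by voom). Sqle, the monooxygenase that opens this arm and is known as one of its slow steps (chr15:59315077-59331192), was at 1.20, 1.24, 1.23 and 1.26 RPKM in the WT line and 1.64, 1.76, 1.65 and 1.59 RPKM in the ΔTAM line. No library of either line came near the other line. The mean rose from 1.23 ± 0.026 to 1.66 ± 0.074 RPKM (SD, n = 4), by 34.9%, a log2 fold change of 0.40 ± 0.035 (SE, limma adjusted p = 1.49e-04). Lss, which closes the rings to lanosterol, had a log2 fold change of -0.028 (95% interval -0.10 to 0.044), and Cyp51, which removes a methyl group from lanosterol, 0.10 (95% interval -0.0026 to 0.21). Tm7sf2, a sterol reductase, was at 1.02 to 1.22 RPKM in the WT line and 0.851 to 1.09 RPKM in the ΔTAM line with a log2 fold change of -0.17 (95% interval -0.36 to 0.015), and its exons share 532 bases with Vps51 on the same strand. None of these 3 passed the test, although Tm7sf2 did so without ΔTAM replicate 1, at -0.23 (limma adjusted p = 0.0378). The C4 demethylation enzymes differed in outcome. Msmo1, which oxidises the methyl group, was at 1.57 to 1.77 RPKM in the WT line and 1.74 to 1.99 RPKM in the ΔTAM line and just missed the threshold (log2 fold change 0.13 (95% interval 0.013 to 0.24), limma adjusted p = 0.0798), which it passed without ΔTAM replicate 4 (limma adjusted p = 0.0490). Nsdhl, the dehydrogenase after it, had a log2 fold change of 0.0017 (95% interval -0.13 to 0.13).

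Hsd17b7, the ketoreductase that ends C4 demethylation (chr1:169949535-169969241), was at 0.149, 0.164, 0.145 and 0.160 RPKM in the WT line and 0.220, 0.237, 0.214 and 0.192 RPKM in the ΔTAM line. The lines did not overlap. Its mean rose from 0.154 ± 0.0089 to 0.216 ± 0.019 RPKM (SD, n = 4), by 39.9%, but the gene is low, with 139 to 225 reads a library, and the log2 fold change of 0.31 ± 0.051 (SE, limma adjusted p = 0.00265) understates that change. By limma voom on recovered reads, without the 0.1 RPKM pseudocount, the log2 fold change was 0.46. Ebp, the sterol isomerase (chrX:8185329-8193512), was at 1.10, 1.15, 1.06 and 1.08 RPKM in the WT line and 1.21, 1.32, 1.32 and 1.38 RPKM in the ΔTAM line, again with no overlap, a log2 fold change of 0.23 ± 0.042 (SE, limma adjusted p = 0.00431). Sc5d, a sterol desaturase (chr9:42251595-42264256), was at 0.496, 0.465, 0.457 and 0.520 RPKM in the WT line and 0.634, 0.590, 0.600 and 0.594 RPKM in the ΔTAM line. It too was higher in every ΔTAM library, with a log2 fold change of 0.27 ± 0.041 (SE, limma adjusted p = 0.00192). Dhcr7, which acts on the product of Sc5d in making cholesterol, did not pass the test, at 0.706 to 0.774 RPKM in the WT line and 0.734 to 0.795 RPKM in the ΔTAM line and a log2 fold change of 0.023 (95% interval -0.069 to 0.11). The window of Hsd17b7 (chr1:169969156-169969455, minus strand) is shown since it holds CCAAT at 3 places together with an E-box, CACGTG, both in capitals.
Hsd17b7: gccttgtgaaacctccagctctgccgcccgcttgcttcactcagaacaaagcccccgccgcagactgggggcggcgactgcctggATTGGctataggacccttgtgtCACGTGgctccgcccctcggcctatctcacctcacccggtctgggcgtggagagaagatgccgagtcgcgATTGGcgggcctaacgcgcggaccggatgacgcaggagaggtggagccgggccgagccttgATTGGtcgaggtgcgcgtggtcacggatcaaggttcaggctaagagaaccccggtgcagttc

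Of the 4 regulators and carriers, 1 rose and 3 did not pass the test, a count near the background of 19.9% higher and 15.9% lower among all genes tested. Insig1, which retains the SREBP precursors in the endoplasmic reticulum and is itself a known SREBP target (chr5:28071363-28078662), was at 2.51, 2.60, 2.45 and 2.51 RPKM in the WT line and 3.02, 3.05, 2.90 and 2.86 RPKM in the ΔTAM line. Each ΔTAM library exceeded each WT library. The mean rose from 2.52 ± 0.062 to 2.96 ± 0.090 RPKM (SD, n = 4), by 17.5%, a log2 fold change of 0.22 ± 0.030 (SE, limma adjusted p = 0.00110). The transcripts of the factors themselves did not pass the test. Srebf2, the sterol-responsive SREBP gene, was at 1.06 to 1.19 RPKM in the WT line and 1.16 to 1.24 RPKM in the ΔTAM line, and Srebf1, which favours fatty acid genes, at 0.946 to 1.10 RPKM in the WT line and 0.986 to 1.06 RPKM in the ΔTAM line. Their log2 fold changes were 0.074 (95% interval -0.013 to 0.16) and 0.011 (95% interval -0.10 to 0.12), so an increase above 0.16 for the first and above 0.12 for the second lies outside these intervals. Stard4, a carrier of cholesterol between membranes, had a log2 fold change of 0.030 (95% interval -0.075 to 0.14). SREBP proteins are activated by cleavage, which these data did not measure.

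Fatty acid genes moved in both directions, with 2 higher, 2 lower and 3 not called among the 7 tested (all genes tested: 19.9% higher, 15.9% lower). Acly makes cytosolic acetyl-CoA from citrate and so stands before both pathways (chr11:100476353-100528000). It was at 1.97, 1.97, 2.00 and 1.89 RPKM in the WT line and 2.67, 2.85, 2.82 and 2.81 RPKM in the ΔTAM line. The WT libraries lay close together and all ΔTAM libraries were well above them. The mean rose from 1.96 ± 0.048 to 2.79 ± 0.082 RPKM (SD, n = 4), by 42.4%, a log2 fold change of 0.49 ± 0.030 (SE, limma adjusted p = 3.96e-05). Fasn, the synthase that makes palmitate (chr11:120805846-120824547), was at 7.76, 7.82, 7.80 and 7.41 RPKM in the WT line and 9.47, 9.60, 9.58 and 9.61 RPKM in the ΔTAM line. Its ΔTAM libraries had a coefficient of variation of 0.701%, and all were above the WT libraries, of which replicate 4 was the lowest. The mean rose from 7.70 ± 0.19 to 9.57 ± 0.067 RPKM (SD, n = 4), by 24.3%, a log2 fold change of 0.31 ± 0.023 (SE, limma adjusted p = 9.24e-05). The windows of both (chr11:100527951-100528250, minus strand for Acly and chr11:120824498-120824797, minus strand for Fasn) are set side by side because both genes rose, with CCAAT or ATTGG in capitals, once in Acly after the start and at 3 places in Fasn, where CCAATTGG holds it on both strands.
Acly: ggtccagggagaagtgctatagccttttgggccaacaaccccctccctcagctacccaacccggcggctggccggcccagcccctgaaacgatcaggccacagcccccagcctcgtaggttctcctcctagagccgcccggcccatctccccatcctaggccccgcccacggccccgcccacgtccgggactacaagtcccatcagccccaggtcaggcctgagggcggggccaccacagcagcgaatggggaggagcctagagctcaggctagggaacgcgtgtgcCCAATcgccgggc
Fasn: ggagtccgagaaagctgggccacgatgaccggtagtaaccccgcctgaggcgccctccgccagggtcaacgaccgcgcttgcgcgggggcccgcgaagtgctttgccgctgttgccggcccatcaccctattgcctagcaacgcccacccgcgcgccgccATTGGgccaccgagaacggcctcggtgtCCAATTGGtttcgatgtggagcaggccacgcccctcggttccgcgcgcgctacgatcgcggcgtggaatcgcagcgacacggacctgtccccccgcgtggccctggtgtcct

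Fads1 and Scd2 were the members of this group that fell. Fads1, the desaturase of long polyunsaturated fatty acids (chr19:10182888-10196870), was at 1.74, 1.74, 1.72 and 1.73 RPKM in the WT line and 1.40, 1.42, 1.43 and 1.36 RPKM in the ΔTAM line. The lines were fully apart. The coefficient of variation in the WT line was 0.631%, on 1172 to 1255 reads a library, and so small a spread among 4 libraries is itself uncertain. By limma voom the log2 fold change was -0.31 ± 0.038 (SE). The mean fell by 19.2%, from 1.73 ± 0.011 to 1.40 ± 0.030 RPKM (SD, n = 4), a log2 fold change of -0.29 ± 0.023 (SE, limma adjusted p = 1.06e-04). Scd2, the stearoyl-CoA desaturase known as the main isoform of embryonic tissue (chr19:44293676-44306864), was at 22.6, 22.6, 22.6 and 22.7 RPKM in the WT line and 19.8, 21.4, 21.2 and 21.1 RPKM in the ΔTAM line. All ΔTAM libraries were below the WT libraries, with replicate 1 the lowest. The mean fell by 7.82%, from 22.6 ± 0.054 to 20.9 ± 0.71 RPKM (SD, n = 4), a log2 fold change of -0.12 ± 0.027 (SE, limma adjusted p = 0.0120). Scd1, its close paralogue 87.6 kb away on chromosome 19, was at 5.09, 4.95, 4.88 and 5.23 RPKM in the WT line and 4.82, 4.85, 4.75 and 4.68 RPKM in the ΔTAM line. It was also lower in every ΔTAM library but missed the threshold, with a log2 fold change of -0.075 ± 0.028 (SE, limma adjusted p = 0.0702). Reads from such paralogues may have been split between them, as the handling of multiple mapping is not stated. Fads2, the partner desaturase 81.4 kb from Fads1, and Elovl6, which lengthens palmitate, did not pass the test, at -0.062 (95% interval -0.17 to 0.046) and -0.066 (95% interval -0.14 to 0.0043) on the log2 scale.

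Acss2 and Acaca were under the filter on RPKM, which in this table is taken over the whole gene with introns, although neither was short of reads. Acss2, which makes acetyl-CoA from acetate (chr2:155517948-155585724), was at 0.0730, 0.0736, 0.0685 and 0.0655 RPKM in the WT line and 0.0486, 0.0556, 0.0476 and 0.0528 RPKM in the ΔTAM line. Every ΔTAM library was below every WT library, on 226 to 257 and 149 to 208 reads. Without the filter its log2 fold change was -0.17 ± 0.034 (SE, limma adjusted p = 0.0166), and its mean fell by 27.1%. Gss shares 395 bases of exon with Acss2 on the opposite strand and had a log2 fold change of 0.19 (limma adjusted p = 0.00303). Acaca, acetyl-CoA carboxylase, which makes the malonyl-CoA that Fasn uses, was at 0.0513 to 0.0534 RPKM in the WT line and 0.0481 to 0.0532 RPKM in the ΔTAM line on 614 to 805 reads a library. Its log2 fold change without the filter was -0.017 (-0.079 to 0.045, limma adjusted p = 0.711).

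**Figure D3:**
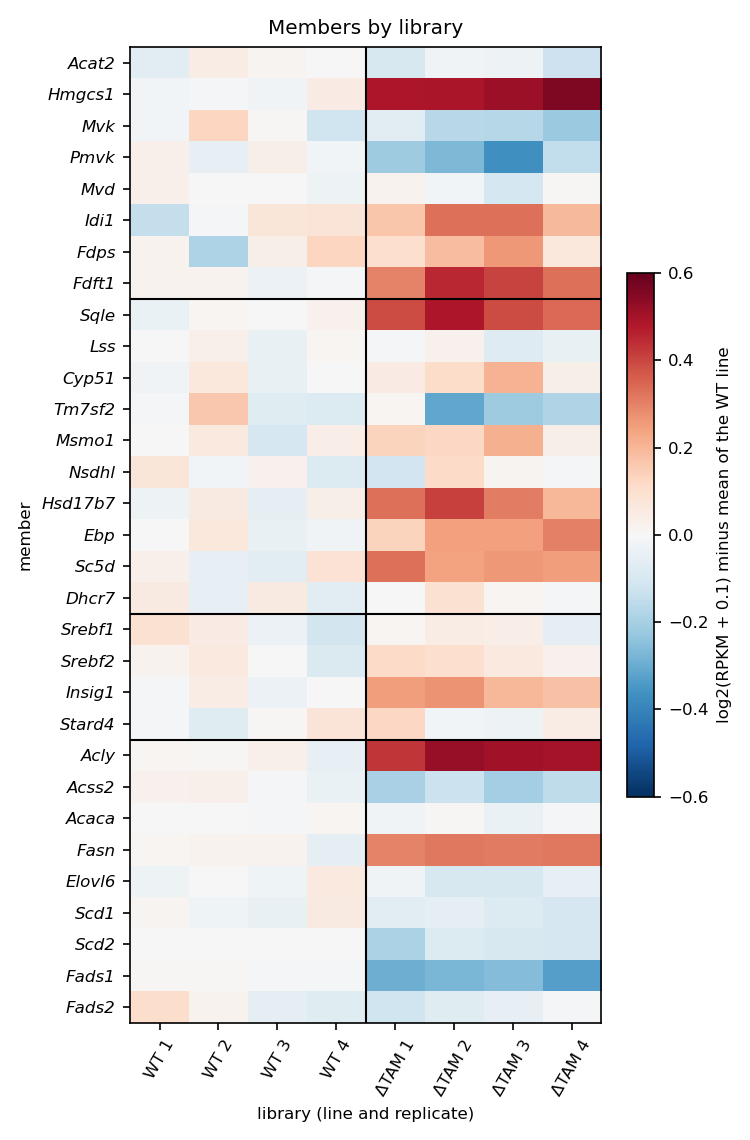
Difference of log2(RPKM + 0.1) from the mean of the WT line (colour) for the 31 members (rows, black lines between roles) in the 8 libraries (columns). Hmgcs1, Acly, Sqle and Fdft1 are red in all 4 ΔTAM libraries and Fads1 and Pmvk blue in all 4, while most other members are pale in both lines.

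The reads recovered from the RPKM values were also tested with limma voom, which does not use the 0.1 RPKM pseudocount and kept all 31 members among 12657 genes. It called 11 members higher, against 21.3% of all its genes, and 6 lower, against 22.7%. The 13 genes called on RPKM were called in the same direction. Added were Msmo1, at 0.13 ± 0.045 (SE, limma voom adjusted p = 0.0247) on the log2 scale, and on the lower side Mvk at -0.21 ± 0.075 (SE, limma voom adjusted p = 0.0244), Scd1 at -0.082 ± 0.032 (SE, limma voom adjusted p = 0.0402) and Acss2 at -0.46 ± 0.079 (SE, limma voom adjusted p = 6.24e-05). Among the 9 fatty acid genes it thus called 2 higher and 4 lower.

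To compare members with each other, reads were divided by the length of the annotated exons and scaled to the reads on genes, whereas the deposited RPKM were scaled to larger totals, of which reads on genes made up 14.9% in WT replicate 1, so the scales are not comparable. On this exon-based level Scd2 was highest in the WT line, at 367 ± 1.8 (SD, n = 4), followed by Acly at 129 ± 2.8. Scd1 at 91.8 ± 3.1 and Fasn at 88.4 ± 1.9 came next and lay within their spread of each other, as did Srebf2 at 61.8 ± 2.6 and Elovl6 at 58.8 ± 2.1. Hmgcs1 at 51.1 ± 1.4 was the highest of the cholesterol enzymes, above Acat2 at 42.8 ± 1.5 and Fdft1 at 41.3 ± 0.88, which lay within their spread of each other. At the low end were Idi1 at 5.0 ± 0.45, Hsd17b7 at 4.01 ± 0.23, Acss2 at 3.14 ± 0.17 and Fdps at 3.09 ± 0.41. Fdps was not apart from Acss2, and its level may be too low because of the exons it shares with Gm43738. In the ΔTAM line Fasn, at 110 ± 0.42, was above Scd1, at 86.8 ± 1.5, and Hmgcs1, at 73.9 ± 1.8, was above Srebf2, at 65.1 ± 2.1, and Elovl6, at 55.5 ± 1.9. Fdft1, at 54.9 ± 2.7, lay within its spread of Elovl6. Scd2 and Acly remained the highest, at 337 ± 9.9 and 183 ± 4.5.

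Together the 31 genes took 0.725% to 0.734% of the reads on genes in the WT line and 0.776% to 0.795% in the ΔTAM line, given as a description since members were chosen with results known. The 18 cholesterol enzymes went from 0.156% to 0.161% in the WT line to 0.180% to 0.186% in the ΔTAM line, without overlap. For the 9 fatty acid genes these shares were 0.484% to 0.487% and 0.501% to 0.517%, although their mean difference on the log2(RPKM + 0.1) scale was 0.00017. Acly and Fasn rose and Fads1 and Scd2 fell, and Acss2, under the filter, was at -0.17 on this scale and -0.46 by voom. The mean so depends on the pseudocount, and by voom the median log2 fold change of the 9 was -0.082. Within a line the members were steady, with a median coefficient of variation of 3.62% in the WT line and 4.34% in the ΔTAM line. Replicate 2 was the highest library of its line for 14 of 31 members in each line, while WT replicate 3 and ΔTAM replicate 4 were the lowest for 13 each. Leaving out any 1 library changed the call or direction of none of the 13 called members.

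**Figure D4:**
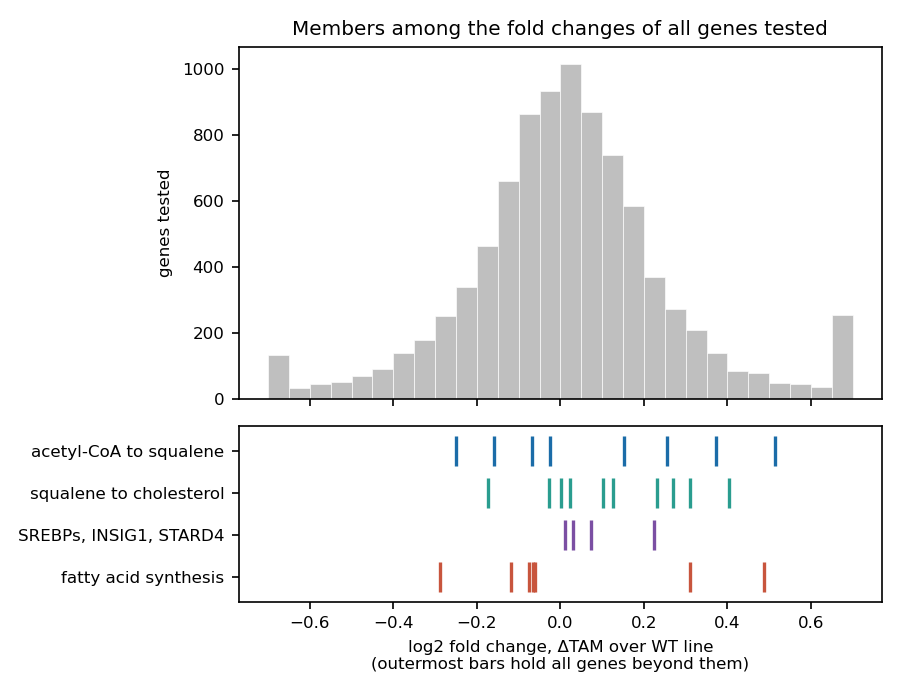
Number of genes (upper vertical axis) by log2 fold change of the ΔTAM over the WT line in steps of 0.05 for all 9000 genes tested, and below it each of the 29 tested members as a tick in the row of its role. No member lies in the outermost bars, with Hmgcs1 at 0.51 and Acly at 0.49 farthest right and Fads1 at -0.29 farthest left.

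RefSeq start windows of 300 bases on GRCm38.p6 were at hand for 24 of the 31 members, in 29 windows, and not for Fdps, Fdft1, Sqle, Stard4, Fads1, Scd1 and Scd2. Letters were searched on both strands, with overlaps allowed. CCAAT was in 21 of the 29 windows (72.4%), against 37.4% of all 32851 windows, and the GC box GGGCGG in 22 (75.9%) against 35.7%. The E-box CACGTG was in 4 windows (13.8%), those of Dhcr7, Hsd17b7, Insig1 and Sc5d, against 7.15%. The sterol element core TCACNCCAC was in 1 window, that of Hmgcs1 printed above, against 1.24%. CCAAT was in windows of genes that rose (Acly, Fasn, Idi1), fell (Pmvk, in 1 of its 2 windows) and were not called (Lss, Mvd, Nsdhl). A match is a description of the sequence and says nothing of a factor's binding.

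Other genes of lipid metabolism, 101 symbols in 6 lists, were read from the same fit. Of the 63 tested, 8 were higher and 17 lower in the ΔTAM line, with a median log2 fold change of -0.042. Fatty acid oxidation, the breakdown pathway in mitochondria and peroxisomes, had 8 of 16 tested genes lower and 3 higher (all genes tested: 15.9% lower, 19.9% higher), with a median of -0.13. Acadvl, the dehydrogenase for very long chains (chr11:70010183-70015411), went from 0.647 ± 0.066 to 0.480 ± 0.075 RPKM (SD, n = 4), a log2 fold change of -0.37 ± 0.11 (SE, limma adjusted p = 0.0298). Its replicate 1 of the ΔTAM line, at 0.368 RPKM, was far below the other 3, and the call was lost without WT replicate 1 (limma adjusted p = 0.0740) or WT replicate 3 (0.0741), and with no filter on low values (0.0707). The genes named next were chosen after their values were seen. Cpt1a and Cpt2, the carnitine transferases that bring fatty acids into mitochondria, had log2 fold changes of -0.37 and -0.34 (limma adjusted p = 7.15e-05 and 3.80e-04). Etfa and Etfdh, which pass on the electrons, had -0.22 each (limma adjusted p = 0.00251 and 0.00610). Cpt1c, Acads and Hadha fell by 0.23, 0.15 and 0.14 on the log2 scale. Acadm, for medium chains, rose by 0.25, with Slc25a20, the carnitine carrier, at 0.16. The call of Slc25a20 was lost without any 1 of 6 libraries, namely WT replicates 1, 3 and 4 and ΔTAM replicates 2, 3 and 4, with limma adjusted p-values of 0.0532 to 0.0874.

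Among genes of sterol uptake and trafficking, 3 of 8 were higher and 1 lower. Of 14 tested by voom, 4 were higher and 4 lower (21.3% and 22.7% of all its genes), with a median log2 fold change of -0.10. Of all genes tested 19.9% were higher and 15.9% lower, the background for this list and for those that follow. Npc1, which exports cholesterol from lysosomes, was at 0.157 to 0.185 RPKM in the WT line and 0.225 to 0.252 RPKM in the ΔTAM line, a log2 fold change of 0.32 (limma adjusted p = 0.00103). Gramd1a, a carrier of cholesterol to the endoplasmic reticulum, had a log2 fold change of 0.11 (limma adjusted p = 0.0386), which passed the test in 8 of its 17 alternatives and not without WT replicate 2, 3 or 4 or ΔTAM replicate 2, 3 or 4 (limma adjusted p = 0.0529 to 0.0925). The lumenal partner of Npc1, Npc2, had a log2 fold change of -0.15 (limma adjusted p = 0.00978). SREBP processing and turnover had 0 higher and 1 lower of 10 by limma, with 3 of 10 at an unadjusted p under 0.05 (45.9% of all genes tested). By voom 2 were higher and 1 lower of 12 tested (21.3% and 22.7% of all its genes). Other sterol and isoprenoid genes had 1 higher and 3 lower of 10, the latter being Acat1, a mitochondrial thiolase, at -0.31, Coq2 of ubiquinone synthesis at -0.29 and Fdxr, a mitochondrial reductase, at -0.27. In that list voom called 2 higher and 4 lower of 12 tested. Other fatty acid genes had 1 higher (Lpin1, a phosphatidate phosphatase, at 0.14) and 3 lower of 16, namely Mcat of mitochondrial fatty acid synthesis at -0.29, Tecr of chain elongation at -0.23 and Acsl1, an acyl-CoA synthetase, at -0.11. Here voom called 3 higher and 10 lower of 29 tested (21.3% and 22.7% of all its genes). Acsl1 was not called without WT replicate 1, WT replicate 3 or ΔTAM replicate 4 (limma adjusted p = 0.0514 to 0.0518). Of LXR targets and efflux genes, 3 were tested, with 0 higher and 1 lower (1 of 3 at an unadjusted p under 0.05, against 45.9% of all genes tested, and 0 higher and 1 lower of 5 tested by voom).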

How the data were processed

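RNA-seq of 8 libraries was analysed, 4 per line, grouped by their titles. The authors filtered out reads of ribosomal RNA, trimmed the rest (the submitters' processing notes list Trimmomatic 0.36), mapped to mm10 with STAR, computed exon coverage per gene and deposited RPKM for each library. The annotation release, strand use and treatment of multiply mapped reads are not given in the sources used here. Deposited RPKM was per kilobase of the whole gene, and times that length gave whole reads for 99.5% of values (within 1.0%). Repeated entries (386 of 51288) were set aside, and 0 sample columns were unmapped. Exon lengths came from GENCODE vM21, whose coordinates 26 members match exactly.

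limma 3.58.1 in R 4.3.3 (lmFit, eBayes with trend, no covariates) was run on log2(RPKM + 0.1) for genes averaging 0.1 RPKM or more, and tables were made in Python 3.11.15. The fits were tested on simulated data, in which large changes were recovered more fully than small ones. Changes were simulated only in genes with more reads than the thinnest members, and the large size was beyond that of every member. Recovery for the low members was therefore not measured. Alternatives were other pseudocounts, filters, scalings and variance models, the replicate block, leaving out each library, and voom on recovered reads (mean of at least 10). All 31 members are named, and of the other lists those called that changed by 0.3 or more (log2) at a mean level of 0.5 RPKM or more, at most 6 per list. A further 2 genes that meet it are not reported here, and the other genes of those lists that are named were chosen after their values were seen. The members and lists were chosen with earlier results of these data known.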

Additional observations from a re-analysis of the deposited data

Results flagged for a closer look

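Each named gene was examined for a library far from the other 3 of its line, in 104 groups of 4 libraries, of which chance alone marks about 1 in 20, and 5 were marked. Hmgcs1 in WT replicate 4 was at 2.03 RPKM, above the other WT libraries at 1.92 to 1.94. Fasn in WT replicate 4 was at 7.41 RPKM, below the others at 7.76 to 7.82. Npc2 in ΔTAM replicate 1 was at 2.63 RPKM, below the others at 2.81 to 2.83, and Acadvl in the same library was at 0.368 RPKM, below 0.515 to 0.520. Acsl1 in ΔTAM replicate 2 was at 0.167 RPKM, above the others at 0.161 to 0.162.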

How the results depend on the processing

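The 13 called members kept their call and direction under each alternative in which they were tested, and 489 of 509 results of members under the alternatives were as first given, with 8 now past the threshold and 12 of the opposite sign. At a mean of at least 1 RPKM only 2148 genes were tested, and 989 of these were called, a larger share than 3225 of 9000. In that setting 6 members were called higher, and 6 other lipid genes were called (against 25). voom on recovered reads called 5570 of 12657 genes, with 6 members lower (against 3). It called 43 of the 90 other lipid genes it tested, against 25 of 63. Leaving out 1 library gave 2618 to 3051 genes, 10 to 11 members higher, 3 to 5 lower (5 without ΔTAM replicate 1) and 21 to 26 other lipid genes. Signs turned only in members near 0 that were not called. Nsdhl was at -0.010 with quantile normalization, -0.0019 with voom and -0.036 to 0.041 with 1 library left out, and Srebf1 at -0.0055 with quantile normalization and -0.025 to 0.042 with 1 left out. Mvd was at -0.038 to 0.0038 and Stard4 at -0.0011 to 0.055 with 1 left out. The cause was not tested.

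Same-numbered libraries of the lines correlated at 0.024 to 0.062 in their deviations from the line means (other pairs -0.061 to 0.028). Of the 8 libraries, 6 correlated best with their own number. As these correlations were weak, the first fit was left without pairing, and a shared effect of the replicate number was not tested. With the replicate block, 2796 genes, 10 members higher and 3 lower, and 20 other lipid genes were called, and Acadvl, Lpin1, Acsl1 and Gramd1a lost their calls (limma adjusted p = 0.0501 to 0.0730). Gramd1a and Slc25a20 also lost theirs with no filter or quantile normalization (0.0635 to 0.0692). Quantile normalization moved the median log2 fold change of all genes from 0.011 to -0.0093. Standard errors of members were widest for Tm7sf2 (0.080) and Fdps (0.074), and Fdps had the fewest reads, 82 to 132 a library.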
